A study of Saccharomyces cerevisiae with 16 samples.

Results

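The genes described here encode 42 budding yeast proteins that acetylate or deacetylate histones, build silent chromatin or move and exchange nucleosomes. They were chosen by gene symbol from their known function, leaving out the core subunits of NuA4, the acetyltransferase complex whose catalytic subunit is mutated in the strain studied. All 42 listed genes were on the arrays, among 4073 named genes, and each was the mean of 2 spots. They comprise 7 genes of the acetyltransferase complex SAGA, 5 of other acetyltransferases and 6 of class I and II deacetylases. HAT2 and SIN3 are counted there as non-catalytic partners of Hat1 and Rpd3. A further 4 are sirtuin genes and 2 are genes of silent chromatin. The remodellers are 7 genes of SWR1 and INO80, 7 of SWI/SNF and RSC, and 3 of the ISWI and CHD type, and ASF1, the only histone chaperone listed (1 gene), closes the list. ARP4, listed with SWR1 and INO80, also encodes a subunit of NuA4.

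Messenger RNA was compared on 16 2-colour arrays, 2 for each of 8 comparisons, with the dyes exchanged between the 2 arrays. The strains were the mutant esa1-L254P, which carries the allele esa1-L254P::NatRMX4 of the catalytic NuA4 gene, and wild type, and both shared the W303 background. G1 cells were held in alpha factor, the mating pheromone that stops the cycle before S phase, for 1 h and then kept for 1 h in 0.05% methyl methanesulfonate (MMS), an alkylating agent that damages DNA, or left untreated. S phase cells were held in alpha factor for 2 h, washed and let into medium that held 0.05% MMS, or none, for 1 h. In 4 comparisons MMS-treated cells were set against untreated cells of the same strain and phase, and in the other 4 esa1-L254P was set against wild type in the same phase and treatment. Every array compared cells of 1 phase, so no level in S phase was measured against a level in G1. The sources used here do not give the growth temperature, or say whether the 2 arrays of a comparison came from separate cultures, so the tests measure only the spread between arrays, which may be technical.

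Acetyl groups on histone tails loosen chromatin and are read by other complexes. SAGA acetylates histone H3 at promoters, Sas2 acetylates the histone H4 tail near silent regions, Sas3 is the catalytic subunit of NuA3, and Rtt109 acetylates newly made H3 together with the chaperone Asf1. Deacetylases such as Rpd3, Hda1 and Hos2 remove the marks, and the NAD-dependent sirtuins Sir2, Hst1, Hst2 and Hst4 do so by another chemistry. Sir2, with Sir3 and Sir4, keeps the silent mating loci and telomeres repressed. The remodellers use ATP to slide nucleosomes (Isw1, Isw2, Chd1), to evict them (SWI/SNF, RSC) or to exchange histone H2A variants (SWR1), and INO80 acts at promoters and replication forks.

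Values below are log2 ratios, MMS over untreated or esa1-L254P over wild type, so that 1 is a 2-fold difference. Array values are given for the array with the first-named RNA in Cy5 and then for the array with it in Cy3. Means carry the standard error of a limma fit over all 16 arrays, and a gene is said to rise or fall where its Benjamini-Hochberg adjusted p over 4073 genes is under 0.05. The dye left a trace in the members as in all genes: a dye term passed in 22 of 42 members (52.4%) and in 2160 of 4073 genes (53.0%). As deposited, exchanged dyes make the 2 arrays of a comparison correlate negatively, which held in 6 comparisons (-0.716 to -0.163). It did not hold for esa1-L254P against wild type with MMS, where the correlation was 0.215 in G1 and 0.612 in S. Counts are therefore also given from a fit with the replicate, which is the dye orientation, as a block. The 4 comparisons of a phase form a closed loop, and the sum around it passed in 0 members and 0 of 4073 genes in either phase, with or without the block. In the main fit the standard error of this sum was 0.13 (ADA2) to 0.51 (RVB2) over the members. A core NuA4 gene with a sum of 0.90 in G1 did not pass, so the check could miss sizeable departures.

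**Figure D1:**
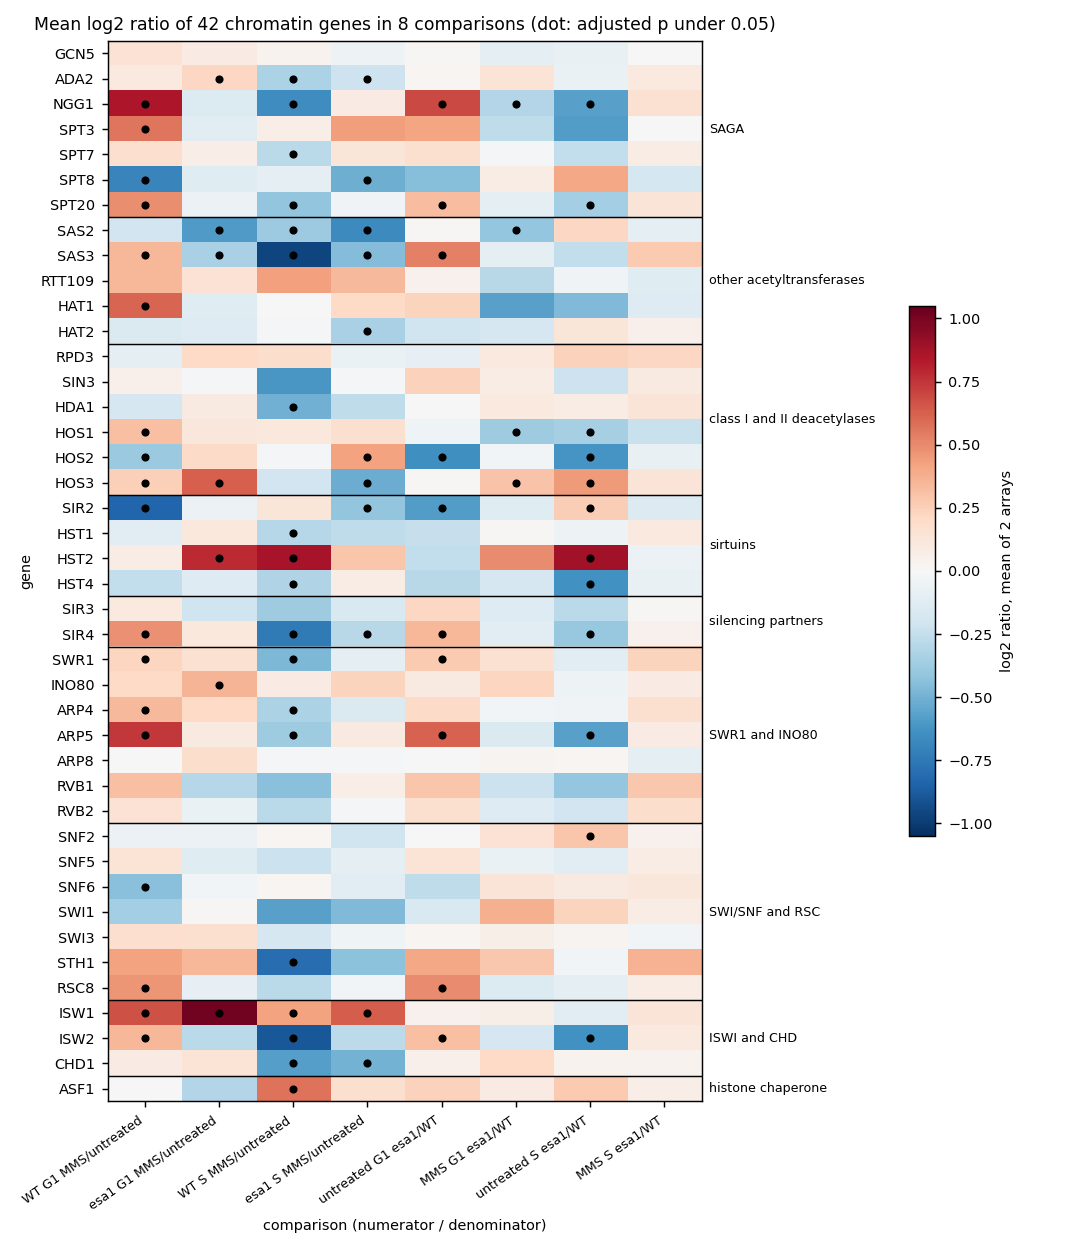
Mean log2 ratio over 2 arrays of each of the 42 genes (rows, grouped by role) in the 8 comparisons (columns). Red is higher and blue lower in the first-named condition, and a dot marks an adjusted p under 0.05. The row of ISW1 is red in all 4 MMS columns, and no gene has a dot in the column of esa1-L254P against wild type in S phase with MMS.

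In wild-type G1 cells MMS raised 14 of the 42 genes and lowered 4. That is 42.9% of the members, against 36.4% of all genes (19.5% higher, 16.9% lower), and the members' median was 0.15, against 0.02 over all genes. The SAGA adaptor NGG1 (also called ADA3) was 0.92 and 0.78 on its arrays (0.85 ± 0.08, adjusted p = 6.07e-05). ARP5, an actin-related subunit of INO80, was 0.70 and 0.79 (0.75 ± 0.10, adjusted p = 0.000318). The nucleosome-sliding ATPase ISW1 was 0.83 and 0.51 (0.67 ± 0.10, adjusted p = 0.000728). All 3 lay well above 0 on both arrays. HAT1, the acetyltransferase of newly made histone H4, was 0.60 and 0.62 (mean 0.61 ± 0.16). SPT3, a SAGA subunit that contacts the TATA-binding protein, was 0.77 and 0.35 (mean 0.56 ± 0.20, adjusted p = 0.0495), with its arrays the farthest apart among the risers named. Smaller rises were those of SPT20 (0.49), SIR4 (0.48), RSC8 (0.46), ISW2 (0.35), SAS3 (0.35), ARP4 (0.34), HOS1 (0.32), HOS3 (0.25) and SWR1 (0.23). SAS3 was 0.29 and 0.40 and HOS3 was 0.18 and 0.31 on the arrays, all above 0.

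The sirtuin SIR2 fell most in these cells, with -0.94 and -0.72 on its arrays (-0.83 ± 0.08, adjusted p = 7.8e-05). SPT8, the SAGA partner of SPT3, was -0.96 and -0.43 (-0.70 ± 0.17, adjusted p = 0.0089), so these SAGA genes moved in opposite directions. SNF6 of SWI/SNF was -0.32 and -0.55 (mean -0.44 ± 0.12), and the Set3 complex deacetylase HOS2 was -0.39 and -0.40 (mean -0.39 ± 0.10). The silencing genes thus split, with SIR2 down, SIR4 at 0.62 and 0.34, and SIR3 at -0.11 and 0.31 (mean 0.10 ± 0.21, adjusted p = 0.757). With either array left out, the calls of NGG1, ARP5, ISW1, SPT20 and SIR2 held, and 5 (without replicate 1) or 7 (without replicate 2) members passed, against 15.6% and 22.4% of all genes. With the block 20 rose and 7 fell (against 56.6% of all genes called), and with arrays scaled to equal spread 5 rose and 3 fell (against 21.6% of all genes).

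In esa1-L254P G1 cells MMS raised 5 members and lowered 2 (16.7%), against 28.1% of all genes (13.6% higher, 14.6% lower). ISW1 had the largest change of any member in any comparison, 1.13 and 0.89 on its arrays (1.01 ± 0.10, adjusted p = 0.000181), about a doubling. HST2, a largely cytoplasmic sirtuin, was 0.65 and 0.92 (0.79 ± 0.15, adjusted p = 0.00356), and its call was lost without replicate 2. The deacetylase HOS3 was 0.63 and 0.63 (0.63 ± 0.08, adjusted p = 0.000611), nearly the same value on both arrays. INO80, the ATPase of the complex of that name, was 0.24 and 0.47 (mean 0.36 ± 0.08), and ADA2, another SAGA adaptor, was 0.17 and 0.26 (mean 0.22 ± 0.07). The genes that fell both encode acetyltransferases of the MYST family, to which Esa1 also belongs. SAS2 was -0.61 and -0.57 (-0.59 ± 0.11, adjusted p = 0.00296), and SAS3 was -0.42 and -0.27 (-0.34 ± 0.09, adjusted p = 0.0173). NGG1 (-0.14, adjusted p = 0.223), ARP5 (0.10, adjusted p = 0.49) and SIR2 (-0.06, adjusted p = 0.607) did not pass in these cells. The calls of ISW1, HOS3 and SAS2 held with either array left out, where 5 or 4 members passed, against 14.1% and 10.3% of all genes. With the block 8 rose and 5 fell (against 51.3% of all genes called), which added STH1, the ATPase of RSC (0.35, adjusted p = 0.000477 with the block), ISW2 (-0.28), ASF1 (-0.31), SIR3 (-0.21), SWI3 (0.17) and RTT109 (0.15).

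In wild-type S phase cells the direction of most changes was downward: MMS lowered 16 members and raised 3 (45.2%), against 38.9% of all genes (18.2% higher, 20.7% lower). The median over members was -0.28, against -0.03 over all genes. SAS3 was -0.93 and -0.99 on its arrays (-0.96 ± 0.09, adjusted p = 4.13e-05). The remodeller ISW2, which represses genes by sliding nucleosomes over their promoters, was -0.92 and -0.86 (-0.89 ± 0.10, adjusted p = 0.000101). STH1 was -0.95 and -0.65 (-0.80 ± 0.15, adjusted p = 0.00273). All 3 lay far below 0 on both arrays. SIR4 was -0.63 and -0.87 (-0.75 ± 0.09, adjusted p = 0.000152) and NGG1 was -0.59 and -0.72 (-0.65 ± 0.08, adjusted p = 0.000198), both below 0 on each array and both opposite in sign to their wild-type G1 values. The chromodomain remodeller CHD1 (-0.57), the deacetylase HDA1 (-0.50) and SWR1 (-0.47), which deposits the variant H2A.Z, fell as well. Smaller decreases were those of SPT20 (-0.42), SAS2 (-0.38), ARP5 (-0.37), ADA2 (-0.34), ARP4 (-0.33), HST4 (-0.31), HST1 (-0.30) and SPT7 (-0.28).

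The members that rose in these cells were HST2, ASF1 and ISW1. HST2 was 0.81 and 0.92 (0.86 ± 0.15, adjusted p = 0.00127), ASF1 was 0.62 and 0.52 (0.57 ± 0.12, adjusted p = 0.00522), and ISW1 was 0.55 and 0.29 (0.42 ± 0.10, adjusted p = 0.00861). ASF1 hands new H3 and H4 to Rtt109, whose gene had 0.25 and 0.61 on its arrays (mean 0.43 ± 0.16, adjusted p = 0.056, with the block 7.84e-05). With either array left out 8 (without replicate 1) or 13 members passed (against 20.8% and 18.5% of all genes), and the calls of SAS3, ISW2, SIR4, NGG1, CHD1, HDA1, SWR1 and HST2 held both times. With the block 4 rose and 23 fell (against 58.9% of all genes called).

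Genes that mark a point in the cell cycle moved in the same S phase comparisons. Of 15 measured genes of the CLB2 cluster, which peak in G2 and mitosis, 14 fell in esa1-L254P with MMS (median -1.66, range -2.66 to -0.21) and 15 in wild type (median -1.80, range -2.81 to -0.48). Of 15 G1/S genes 9 rose in esa1-L254P (median 0.60) and 11 in wild type (median 0.73). In G1 the CLB2 cluster medians were -0.11 in esa1-L254P (1 fell) and 0.26 in wild type (5 rose, 1 fell). The part of cell cycle position in the members' S phase values was not tested.

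In esa1-L254P S phase cells 2 members rose and 9 fell with MMS (26.2%), against 33.2% of all genes (16.3% higher, 17% lower). ISW1 was 0.65 and 0.62 (0.63 ± 0.10, adjusted p = 0.00115). It rose in all 4 MMS comparisons, which no other member did without the block and RTT109 also did with it. HOS2 was 0.45 and 0.39 (0.42 ± 0.10, adjusted p = 0.0081). SAS2 was -0.80 and -0.53 (-0.67 ± 0.11, adjusted p = 0.00115), and CHD1 was -0.39 and -0.60 (-0.50 ± 0.08, adjusted p = 0.00149). Each of these genes had both arrays on the same side of 0. HOS3 was -0.58 and -0.46 (-0.52 ± 0.08, adjusted p = 0.00104), the opposite of its G1 value in this strain. SPT8 was -0.66 and -0.37 (mean -0.52 ± 0.17) and SAS3 was -0.51 and -0.40 (mean -0.46 ± 0.09). SIR2 (-0.41), SIR4 (-0.29; arrays -0.29 and -0.29), ADA2 (-0.22) and HAT2 (-0.34), the partner of Hat1, fell less. HST2 (0.29, adjusted p = 0.153), NGG1 (0.09, adjusted p = 0.444) and ISW2 (-0.27, adjusted p = 0.0522, with the block 0.00113) did not pass. Without replicate 1 or replicate 2 the count was 6 each time (against 20.4% and 16.5% of all genes), and ISW1, SAS2, HOS3 and CHD1 passed both times. With the block 5 rose and 15 fell (against 55.6% of all genes called).

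**Figure D2:**
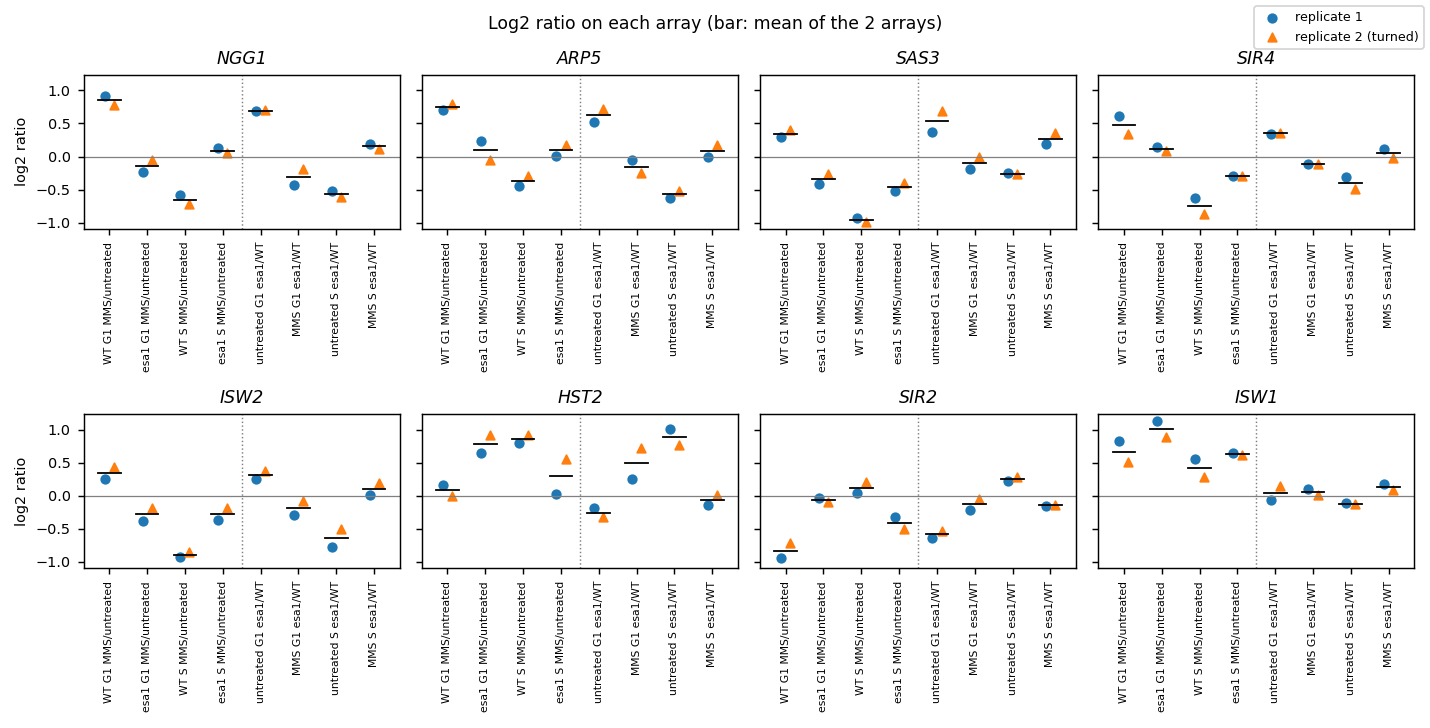
Log2 ratio on each array for 8 genes (panels) in the 8 comparisons (horizontal axis), with replicate 1 and replicate 2 as separate symbols. NGG1, ARP5, SIR4 and ISW2 lie above 0 in wild-type G1 with MMS and below 0 in wild-type S with MMS on both arrays, and ISW1 lies above 0 in all 4 MMS comparisons on both arrays.

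Averaged over the 4 MMS comparisons, 6 members rose and 11 fell (40.5%), against 55.3% of all genes (28% higher, 27.3% lower). ISW1 (0.68 ± 0.05, adjusted p = 3e-06) and HST2 (0.51 ± 0.07, adjusted p = 0.000244) rose most. RTT109 (0.32 ± 0.08, adjusted p = 0.00676), INO80 (0.22), HOS1 (0.18), which deacetylates the cohesin subunit Smc3, and ARP5 (0.14) rose too. RTT109 passed in none of the single comparisons without the block, where its values were 0.15, 0.35, 0.34 and 0.43 in mutant G1, wild-type G1, mutant S and wild-type S. With the block it passed in each of them. The acetyltransferase genes SAS2 (-0.46 ± 0.05, adjusted p = 5.53e-05) and SAS3 (-0.35 ± 0.04, adjusted p = 0.000101) fell, as did SPT8 (-0.36), SWI1 (-0.34), SIR2 (-0.29), ISW2 (-0.27), HDA1 (-0.21), CHD1 (-0.21), HAT2 (-0.16), HST4 (-0.16) and HST1 (-0.14). For some of these genes the mean joins calls of opposite sign. ARP5 rose in wild-type G1 (0.75) and fell in wild-type S (-0.37). SAS3 and ISW2 rose in wild-type G1 (0.35 each) and fell in wild-type S (-0.96 and -0.89). The calls of ISW1, HST2, SAS2, SAS3 and SIR2 held with replicate 1 or replicate 2 of every comparison left out, where 9 and 10 members passed, against 33.8% and 32.9% of all genes. With the block 25 passed, against 72.7% of all genes.

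The MMS response differed between phases in 15 members (35.7%), against 17.3% of all genes. As the mean over both strains of the response in S phase minus that in G1, 13 were lower in S (9.87% of all genes) and 2 were higher (7.39%). The largest differences were STH1 (-0.9996 ± 0.15, adjusted p = 0.0021), SIR4 (-0.81 ± 0.09, adjusted p = 0.000342), HOS3 (-0.80 ± 0.08, adjusted p = 0.00023), SAS3 (-0.71), CHD1 (-0.65), NGG1 (-0.64) and ISW2 (-0.62). ARP5 (-0.56), ARP4 (-0.52), SWR1 (-0.48), SPT20 (-0.44), ADA2 (-0.44) and HDA1 (-0.35) were also lower in S, and ASF1 (0.52 ± 0.12) and SIR2 (0.30 ± 0.08) were higher in S. For HOS3 the mutant response was -0.52 in S and 0.63 in G1, and the wild-type response -0.20 in S and 0.25 in G1. For STH1 the values were -0.43 in S and 0.35 in G1 in the mutant, and -0.80 in S and 0.42 in G1 in wild type. Both genes lay above 0 in G1 and below 0 in S in either strain. With replicate 1 or replicate 2 left out throughout, 0 members passed, against 0.466% and 0.27% of all genes. With the block 22 were lower and 4 higher, against 34.9% of all genes called.

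**Figure D3:**
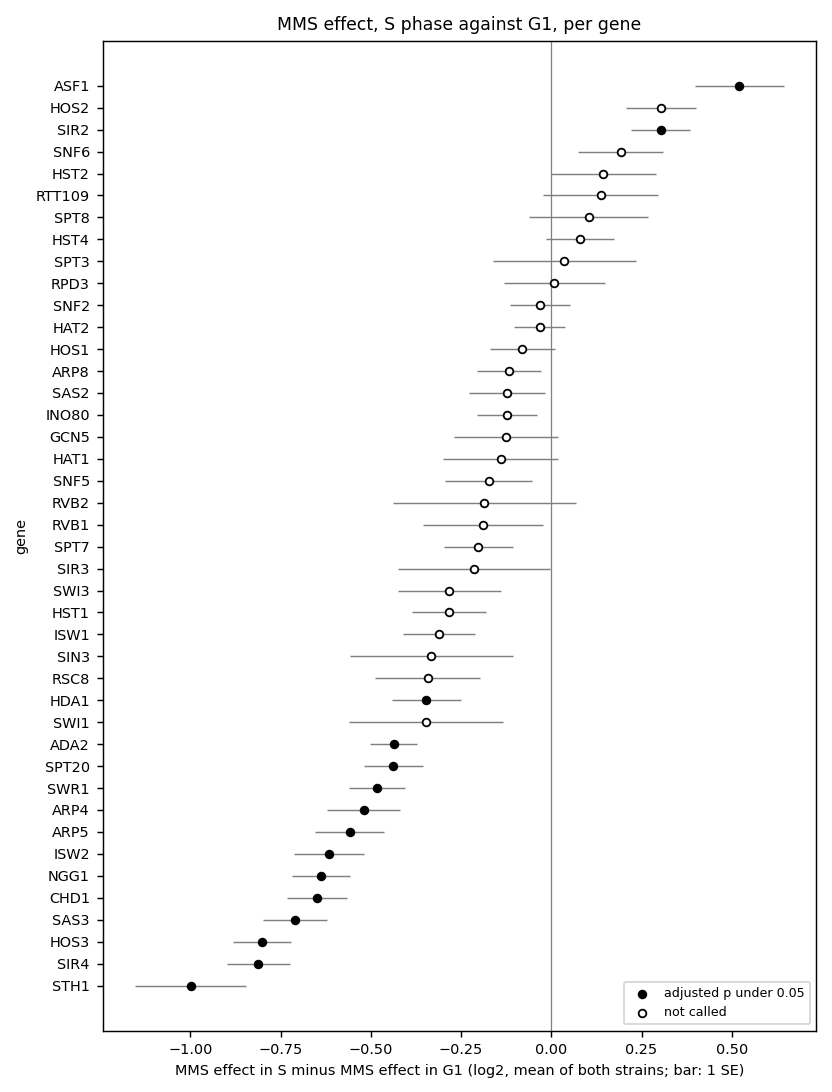
MMS response in S phase minus MMS response in G1 (log2, mean over both strains, bars are the standard error) for each of the 42 genes, with filled symbols for an adjusted p under 0.05. The filled points are 13 below 0, with STH1 lowest at -0.9996, and 2 above 0, SIR2 and ASF1.

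Without MMS in G1, 8 members were higher in the mutant and 2 were lower (23.8%), relative to wild type and against 21.9% of all genes (13.7% higher, 8.27% lower). NGG1 was 0.68 and 0.70 (0.69 ± 0.08, adjusted p = 0.000502). ARP5 was 0.52 and 0.73 (0.62 ± 0.10, adjusted p = 0.00181), and SAS3 was 0.38 and 0.69 (0.53 ± 0.09, adjusted p = 0.0025). These were higher in the mutant on both arrays, and the calls of ARP5 and SAS3 were lost without replicate 2. RSC8, a structural subunit of RSC, was 0.31 and 0.68 (mean 0.50 ± 0.15), and SIR4 was 0.35 and 0.35 (mean 0.35 ± 0.09). The spots of RSC8 differed by a median of 0.365 over the 16 arrays. SPT20 (0.33), ISW2 (0.31) and SWR1 (0.27) were higher by less. HOS2 was -0.72 and -0.57 (-0.64 ± 0.10, adjusted p = 0.0016) and SIR2 was -0.64 and -0.53 (-0.58 ± 0.08, adjusted p = 0.00108), the members lower in the mutant. The calls of NGG1, HOS2 and SIR2 held with either array left out, where 5 or 3 members passed, against 8.15% and 7.88% of all genes. With the block 12 were higher and 7 lower (against 43.7% of all genes called), and with arrays scaled to equal spread 5 were higher and 3 lower (against 18.9% of all genes).

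With MMS in G1, 1 member was higher and 3 were lower in esa1-L254P (9.52%), against 10.4% of all genes (5.38% higher, 4.98% lower). HOS3 was 0.29 and 0.32 (0.30 ± 0.08, adjusted p = 0.0434). SAS2 was -0.43 and -0.39 (-0.41 ± 0.11, adjusted p = 0.0389), HOS1 was -0.38 and -0.37 (-0.37 ± 0.09, adjusted p = 0.0314) and NGG1 was -0.43 and -0.19 (-0.31 ± 0.08, adjusted p = 0.0403). None of these 4 calls held without replicate 1 or without replicate 2, where 0 members passed (against 1.5% and 3.81% of all genes), and the adjusted p of each lay close to the threshold. With the block 6 were higher and 7 lower (against 29.3% of all genes called), with arrays centred on their median 0 were higher and 3 lower (against 9.8%), and with arrays scaled 2 were higher and 3 lower (against 12.7% of all genes). HAT1 had the lowest value, -0.78 and -0.35 on its arrays (mean -0.57 ± 0.16, adjusted p = 0.0507, with the block 0.00433).

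Without MMS in S phase, 4 members were higher and 8 lower in esa1-L254P (28.6%), against 21.6% of all genes (9.4% higher, 12.2% lower). HST2 was 1.01 and 0.76 (0.88 ± 0.15, adjusted p = 0.00274), a larger value than that of any other member, and its call was lost without replicate 1. HOS3 was 0.35 and 0.53 (0.44 ± 0.08, adjusted p = 0.00445). SNF2, the ATPase of SWI/SNF, was 0.24 and 0.34 (mean 0.29 ± 0.08), and SIR2 was 0.23 and 0.28 (mean 0.26 ± 0.08, adjusted p = 0.0496). Among the genes that were lower, ISW2 was -0.77 and -0.51 (-0.64 ± 0.10, adjusted p = 0.00195). HST4, a sirtuin that removes acetyl groups from the core of H3, was -0.60 and -0.66 (-0.63 ± 0.09, adjusted p = 0.00181), and HOS2 was -0.67 and -0.56 (mean -0.62 ± 0.10). HOS2 was thus lower in the mutant in both phases. NGG1 was -0.53 and -0.62 (-0.57 ± 0.08, adjusted p = 0.00138) and ARP5 was -0.63 and -0.51 (mean -0.57 ± 0.10), both opposite in sign to G1. SIR4 (-0.40; arrays -0.30 and -0.50), SPT20 (-0.36) and HOS1 (-0.35) were lower by less. The calls of HST4 and NGG1 held with either array left out, where 3 or 6 members passed, against 5.57% and 6.04% of all genes. With the block 8 were higher and 13 lower, against 39.8% of all genes called.

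With MMS in S phase no member differed between the strains in the limma fit (0 of 42, against 3 of 4073 genes or 0.0737%, with 0.0246% higher and 0.0491% lower). At an unadjusted p under 0.05 4 members passed (9.52%, against 6.11% of all genes), and with the block 1 did, STH1, at 0.27 and 0.46 on its arrays (0.37 ± 0.15, adjusted p = 0.773, with the block 0.00764), against 2.38% of all genes. Member means lay between -0.23 and 0.37, with a median of 0.08 against 0.01 over all genes. The 2 arrays lay on the same side of 0 for 20 of 42 members (47.6%) and for 36.6% of all genes, so small differences were not detectable here. Over all 4 strain comparisons HOS3 was higher (0.22 ± 0.04, adjusted p = 0.0111), and HOS2 (-0.34 ± 0.05, adjusted p = 0.00363), HST4 (-0.29 ± 0.05, adjusted p = 0.00606) and HOS1 (-0.25 ± 0.05, adjusted p = 0.0112) were lower in esa1-L254P. These means do not hold in each comparison. HOS2 was -0.03 in G1 and -0.07 in S with MMS, and HST4 was -0.08 in S with MMS. In untreated G1 HOS3 was 0.01 and HOS1 was -0.05. The members that passed on the mean are 9.52% of all members, against 5.82% of all genes (3.17% higher, 2.65% lower). Over the 42 members, 0 passed without replicate 1 or without replicate 2 (against 0.123% and 0.0737% of all genes), 7 were higher and 8 lower with the block (against 20.3% of all genes), and 3 were higher and 4 lower with arrays scaled (against 8.74% of all genes).

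In untreated cells the strain difference of several members had opposite signs in the phases. The difference in S phase minus that in G1, a contrast chosen after the values were seen, passed in 17 members (12 lower, 5 higher; 40.5%), against 33.6% of all genes. NGG1 (-1.27 ± 0.11, adjusted p = 5.56e-05), ARP5 (-1.19 ± 0.14, adjusted p = 0.000193), SPT3 (-0.9994 ± 0.28, adjusted p = 0.0199) and ISW2 (-0.95 ± 0.14, adjusted p = 0.000604) were lowest, followed by SAS3 (-0.79), SIR4 (-0.75), RVB1 (-0.70), HAT1 (-0.70), SPT20 (-0.68), RSC8 (-0.60), SPT7 (-0.42) and SWR1 (-0.39). HST2 (1.14 ± 0.21, adjusted p = 0.00214), SPT8 (0.85), SIR2 (0.84), HOS3 (0.43) and HAT2 (0.34) were higher. Without replicate 1, and without replicate 2, 7 members passed (against 14.4% and 14.6% of all genes), and NGG1, ARP5, ISW2, SAS3, SPT20 and SIR2 passed both times. With the block 18 were lower and 8 higher, against 54.1% of all genes called. The CLB2 cluster was followed in the same comparisons: of its 15 genes 4 were higher and 0 lower in untreated esa1-L254P G1 (median 0.19), 0 were higher and 5 lower in untreated esa1-L254P S (median -0.24), and in this contrast 0 were higher and 8 lower (median -0.62), with SPO12 lowest at -2.23. Of the 15 G1/S genes 4 were higher and 1 lower in untreated G1, 3 higher and 0 lower in untreated S, and 1 higher and 0 lower in this contrast. The part of cell cycle position in the members' values here was not tested.

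The MMS response and the untreated strain difference of a phase share the untreated wild-type condition in the denominator, and whether they share its RNA is not given in the sources used here. Their values for the members are therefore set side by side only. NGG1 was 0.85 with MMS in wild type and 0.69 in untreated esa1-L254P in G1, and -0.65 and -0.57 in S. ARP5 was 0.75 and 0.62 in G1, and -0.37 and -0.57 in S. SIR2 was -0.83 and -0.58 in G1, and HST2 was 0.86 and 0.88 in S. Other members had values of opposite sign in such a pair: HST2 was 0.08 and -0.25 in G1, HOS3 was -0.20 and 0.44 in S, and SAS2 was -0.38 and 0.22 in S. A level for each of the 4 conditions, relative to their mean and fitted from all 8 arrays of a phase, shows the same data without a denominator. NGG1 in G1 was 0.02 in esa1-L254P with MMS, 0.17 in untreated esa1-L254P, 0.33 in wild type with MMS and -0.52 in untreated wild type. NGG1 in S was -0.06 in esa1-L254P with MMS, -0.15 in untreated esa1-L254P, -0.22 in wild type with MMS and 0.43 in untreated wild type. HST2 in S was 0.31 in esa1-L254P with MMS, 0.11 in untreated esa1-L254P, 0.27 in wild type with MMS and -0.68 in untreated wild type. Untreated wild type was the condition farthest from the mean in 23 of 42 members in G1 (54.8%), against 38.6% of all genes, and in 17 of 42 in S (40.5%), against 40%.

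**Figure D4:**
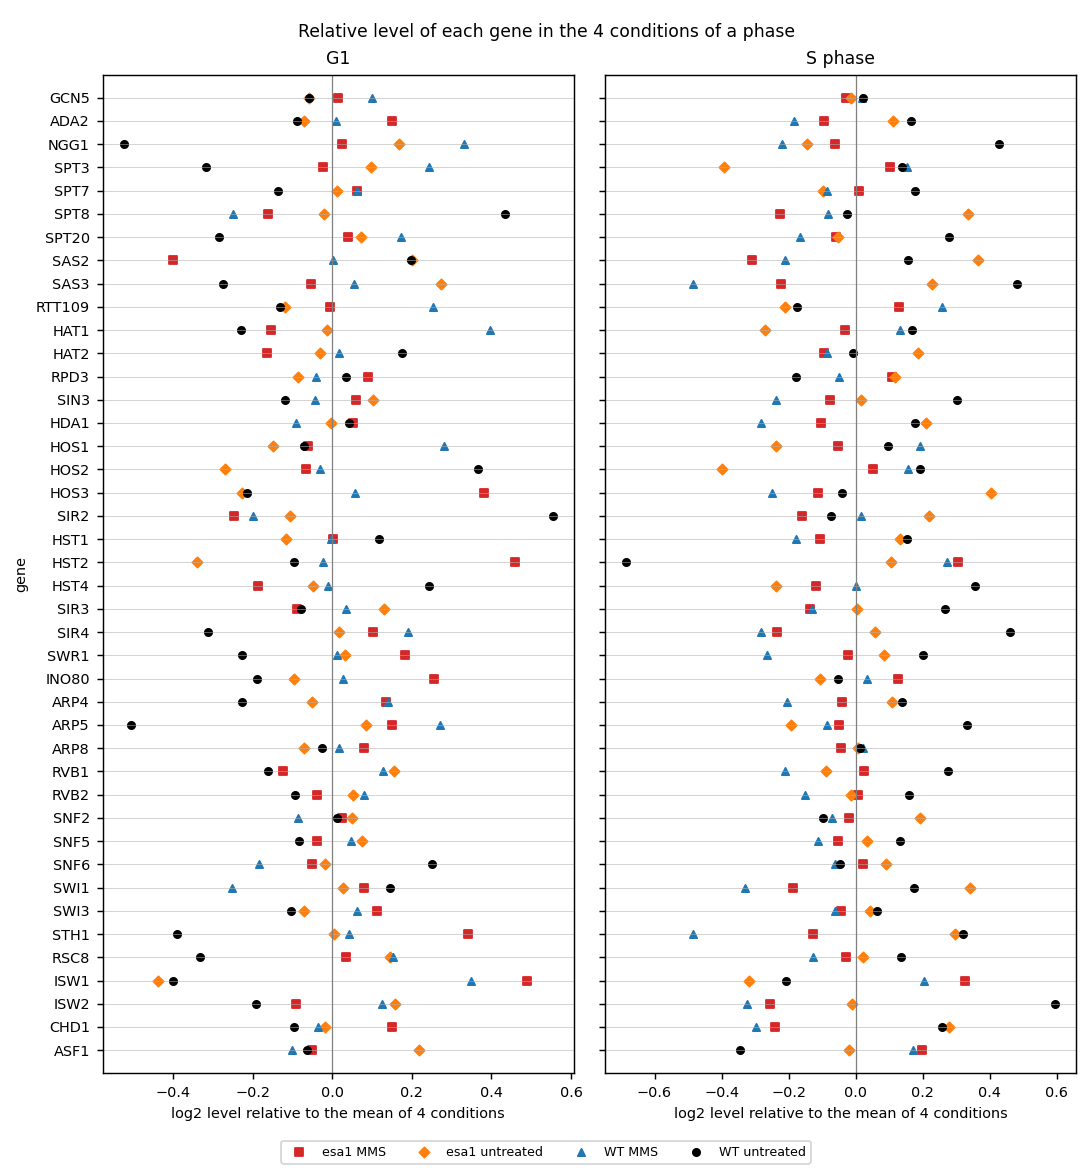
Log2 level of each gene in the 4 conditions relative to their mean, in G1 (left) and S phase (right), fitted from the 8 arrays of the phase. In NGG1 and ARP5 the untreated wild-type point is the lowest of the 4 in G1 and the highest in S, and in HST2 it is the lowest in S.

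The strain difference of the MMS response, esa1-L254P minus wild type, was taken over the 4 comparisons of a phase, averaging the difference between the MMS comparisons and that between the strain comparisons. In G1 it passed in 18 members (42.9%; 6 higher, 12 lower), against 41.8% of all genes. NGG1 (-0.9971 ± 0.08, adjusted p = 1.56e-05) was lowest, with a response of -0.14 in esa1-L254P and 0.85 in wild type. HAT1 (-0.77), ARP5 (-0.71), SPT3 (-0.68), SAS3 (-0.66), RSC8 (-0.59), RVB1 (-0.57), ISW2 (-0.56), SPT20 (-0.49), SIR4 (-0.42), SAS2 (-0.40) and HOS1 (-0.26) were also lower. HST2 (0.73 ± 0.15, adjusted p = 0.003), SIR2 (0.61 ± 0.08, adjusted p = 0.000292), HOS2 (0.60), SPT8 (0.54), SNF6 (0.40) and HOS3 (0.34) were higher. The SIR2 response was -0.06 in the mutant and -0.83 in wild type. The calls of NGG1, ARP5, SAS3, SPT20 and SIR2 held without replicate 1 and without replicate 2, where 6 and 8 members passed, against 17.6% and 21.9% of all genes. With the block 24 passed, against 63% of all genes.

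In S phase the strain difference of the MMS response passed in 14 members (33.3%; 11 higher, 3 lower), against 22.6% of all genes (13.6% higher, 8.99% lower). NGG1 (0.73 ± 0.08, adjusted p = 0.000624) was highest, with a response of 0.09 in esa1-L254P and -0.65 in wild type. ISW2 (0.68 ± 0.10, adjusted p = 0.00138) had a response of -0.27 in esa1-L254P and -0.89 in wild type. RVB1 (0.60), ARP5 (0.56), SAS3 (0.52), HOS2 (0.49), HST4 (0.47), SIR4 (0.45), SPT20 (0.44), SPT7 (0.37) and SWR1 (0.36) were higher as well. HST2 (-0.76 ± 0.15, adjusted p = 0.00571), SIR2 (-0.47) and HOS3 (-0.31) were lower. With replicate 1 or replicate 2 left out throughout 0 members and 0 of the 4073 genes passed, and with the block 18 were higher and 8 lower, against 44.6% of all genes called. ISW1 did not pass in either phase (0.18, adjusted p = 0.183 in G1 and 0.23, adjusted p = 0.131 in S), nor did CHD1 (0.11 in G1 and 0.04 in S).

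Over the 8 comparisons 11 members passed in none without the block (26.2%), against 35.6% of all genes: GCN5, RTT109, RPD3, SIN3, SIR3, ARP8, RVB1, RVB2, SNF5, SWI1 and SWI3. With the block only RPD3, ARP8 and RVB2 of these passed in none. RTT109 and SWI1 then passed in 5, SIR3 in 4, SWI3 in 3, SIN3 in 2, and GCN5, RVB1 and SNF5 in 1. Among the 11 are the catalytic subunits of SAGA (GCN5, means of -0.10 to 0.15) and of the Rpd3 complexes (RPD3, -0.11 to 0.24), and ARP8 of INO80 (-0.09 to 0.19). Their standard errors were 0.143, 0.139 and 0.088. SIN3 and SWI1 reached -0.61 and -0.57 with MMS in wild-type S, with standard errors of 0.226 and 0.214, so differences of that size were not detectable for them without the block, with which they passed (adjusted p = 0.000201 and 0.000309). NGG1, SAS3, SIR4 and HOS3 passed in 5 comparisons (9.52% of members, against 6.43% of all genes), the highest number among the members without the block. A further 3.29% of all genes passed in 6 and 0.933% in 7, where no member did. In no comparison did all 7 SAGA genes pass. With the block STH1 and ISW2 passed in 7, a number for which no share of all genes is given here. In at least 1 of the 4 MMS comparisons 30 members passed (71.4%), against 62% of all genes, and in at least 1 of the 4 strain comparisons 16 did (38.1%), against 33.7%. The members were measured with a smaller median standard error (0.101) than all genes (0.147).

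Without the block NGG1, SAS3, SIR4 and HOS3 each did not pass in 3 of the 8 comparisons. NGG1 was -0.23 and -0.06 with MMS in esa1-L254P G1, 0.13 and 0.05 with MMS in esa1-L254P S, and 0.20 and 0.12 between the strains in S with MMS (adjusted p = 0.941). SAS3 was -0.18 and -0.01 between the strains in G1 with MMS, -0.25 and -0.26 in untreated S (adjusted p = 0.0677, with the block 0.0107) and 0.19 and 0.35 in S with MMS (adjusted p = 0.475). SAS3 and NGG1 had both arrays above 0 in S with MMS, and neither passed there. SIR4 was 0.14 and 0.08 with MMS in esa1-L254P G1, and between the strains it was -0.11 and -0.11 in G1 with MMS and 0.11 and -0.02 in S with MMS. HOS3 was -0.26 and -0.14 with MMS in wild-type S (adjusted p = 0.0714, with the block 0.00707), and between the strains it was -0.10 and 0.12 in untreated G1 and 0.06 and 0.22 in S with MMS.

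Other subunits of the same complexes were followed as lists. Of 16 measured further genes of SWR1 and INO80, 8 rose in wild-type G1 with MMS and 0 fell (19.5% higher and 16.9% lower over all genes). In untreated esa1-L254P 6 were higher and 0 lower in G1 (13.7% higher and 8.27% lower over all genes), and 0 were higher and 6 lower in S (9.4% higher and 12.2% lower over all genes). The INO80 subunit IES1 was 1.19, 0.86 and -0.46 in these 3 comparisons, IES2 was 0.9980, 0.83 and -0.60, and IES4 was 0.73, 0.69 and -0.69. ARP5, in the same complex, had 0.75, 0.62 and -0.57. INO80 itself, with 0.21, 0.10 and -0.05, and ARP8, with 0.00, -0.01 and 0.02, passed in none of the 3. Of 20 further genes of deacetylase complexes, 10 rose and 3 fell in wild-type G1 with MMS, 10 were higher and 0 lower in untreated mutant G1 cells, and 2 were higher and 10 lower in untreated mutant S cells, to be read against the same shares of all genes. SET3, the scaffold of the complex that holds Hos2, had 0.97, 0.66 and -0.74, whereas HOS2 itself had -0.39, -0.64 and -0.62. The sirtuin gene HST3, which works with HST4 and is itself a CLB2 cluster gene, fell with MMS in S phase (-2.19 in esa1-L254P and -1.95 in wild type).

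Of 19 further genes of SAGA and other acetyltransferase complexes, 3 rose and 6 fell in wild-type S with MMS (18.2% higher and 20.7% lower over all genes), and 1 rose and 4 fell in esa1-L254P G1 with MMS (13.6% higher and 14.6% lower over all genes). YNG1 and NTO1, subunits of NuA3 beside Sas3, were the first of this list in 3 comparisons. YNG1 was -1.11 with MMS in esa1-L254P G1 (adjusted p = 9.63e-05), -0.86 in S phase of the mutant (adjusted p = 8.47e-05) and -1.01 in S phase of wild type (adjusted p = 2.77e-05). NTO1 was -0.78, -0.72 and -0.71 in the same comparisons, and SAS3 was -0.34, -0.46 and -0.96. In wild-type G1 with MMS YNG1 was -0.37 (adjusted p = 0.00825), NTO1 -0.33 (adjusted p = 0.00421) and SAS3 0.35. EAF6, whose product belongs to NuA3 and NuA4, was -0.51, -0.14 (adjusted p = 0.32) and -0.59 in the first 3 comparisons and 0.33 in wild-type G1. Of 5 measured ISWI complex partners 2 fell in wild-type S with MMS (against 38.9% of all genes called), among them ITC1, the partner of Isw2 (-0.60, beside -0.89 for ISW2). In wild-type G1 4 of these partners rose (against 36.4% of all genes called), with ITC1 at 0.33. Of 17 further SWI/SNF and RSC genes 5 rose and 2 fell in wild-type G1, led by HTL1 of RSC (1.06), and 1 rose and 4 fell in wild-type S, in comparisons where 36.4% (G1) and 38.9% (S) of all genes passed.

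Beside SIR2 and SIR4, 9 other silencing factors were measured, of which 4 rose and 1 fell in wild-type G1 with MMS, led by ESC1 (1.04; 19.5% higher and 16.9% lower over all genes), whose product anchors Sir4 at the nuclear edge. In wild-type S 1 rose and 5 fell (18.2% higher and 20.7% lower over all genes), among them NET1 (-0.80), which holds Sir2 in the nucleolus, while SIR1 was 0.73. Of 12 measured mating type and silent locus genes, 4 were higher and 1 lower in untreated esa1-L254P G1 cells (13.7% higher and 8.27% lower over all genes), and 2 were higher and 3 lower in untreated esa1-L254P S cells (9.4% higher and 12.2% lower over all genes). HMRA1 was 1.04 in G1 and -1.20 in S, and MATALPHA2 was 0.89 in G1 and -0.68 in S. Genes at the silent loci have near-identical copies, so their spots cannot be assigned to 1 locus. In the same comparisons SIR2 was -0.58 in G1 and 0.26 in S, SIR4 was 0.35 in G1 and -0.40 in S, and SIR3 was 0.22 in G1 (adjusted p = 0.526) and -0.28 in S (adjusted p = 0.423). HMRA1 was the highest of the 12 genes in G1 and the lowest in S. The list ranged from -0.62 to 1.04 in G1 and from -1.20 to 0.47 in S, so the sign of HMRA1 does not stand for the list. A link between these values and those of the SIR genes was not tested.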

How the data were processed

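The values are log2 ratios deposited by the authors, 1 per spot and array. The submitters' processing notes name R 3.1.1 and limma 3.0. The log base was taken as 2 and the ratio as Cy5 over Cy3. Background correction and normalization are not given in the sources used here. Arrays give no counts, so their number limits the precision.

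Spots do not follow the platform's probe numbers: read that way, spots of a gene correlated at -0.0302 to 0.0257. A search over 8036 regular layouts, scored on 2035 genes by how well duplicate spots matched, gave a best score of 2.1352, a next of 0.0712 and 0.0608 as the best of 1000 random orders. Duplicates of 2035 genes left out of the search then correlated at 0.677 to 0.948. Every gene name rests on this order. Of 15744 spots, 8152 had 1 symbol, and the 7592 with none were not used. Spots were averaged per gene and replicate 2 was multiplied by -1.

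The limma fit (R 4.3.3, limma 3.58.1) had a coefficient for each comparison and no scaling of arrays. Same-numbered replicates of different comparisons deviated together (r of 0.619 to 0.892 over 28 pairs, median 0.792). The number, which the labels make the dye orientation, was therefore taken as pairing the arrays, but only in the fit with the block. The main fit, which gave the standard errors and calls above, left this pairing out. Its median standard error of a comparison over all genes was 0.147, against 0.093 with the block. A gene that did not pass in the main fit may thus pass with the block. Blocked counts are given for each comparison, but blocked values only for some of the members whose call they change. Of 672 member values over all comparisons and contrasts, 117 were called only with the block. Alternatives were the replicate block, leaving out a replicate, centring or scaling arrays, 1 spot only, robust eBayes and the arrays of 1 phase.

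The members and lists were chosen with earlier results of these data known. Every called member is named, with array values for up to 5 per direction and comparison and for members called in 5 or more. Other genes come from lists of complexes and cell states, up to 4 by size. Promoter sequences were not used here.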

Additional observations from a re-analysis of the deposited data

Results flagged for a closer look

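A difference between phases or strains passed its own test in 64 member values, all log2 differences from the limma fit at an adjusted p under 0.05. No explanation was tested for any of these values. The contrasts behind them reuse arrays: the untreated strain comparisons enter both the strain difference of the MMS response and the untreated strain difference. A shift in a single condition, such as untreated wild type, can therefore enter several contrasts, so the values are not independent of each other. The MMS response in S minus G1 passed in 35.7% of members and 17.3% of all genes. The strain difference of the MMS response passed in 42.9% against 41.8% in G1, and in 33.3% against 22.6% in S. The untreated strain difference, S minus G1, passed in 40.5% against 33.6%. 

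The MMS response in S phase minus that in G1 was lower for STH1 (-0.9996), SIR4 (-0.81), HOS3 (-0.80), SAS3 (-0.71), CHD1 (-0.65), NGG1 (-0.64), ISW2 (-0.62), ARP5 (-0.56), ARP4 (-0.52), SWR1 (-0.48), SPT20 (-0.44), ADA2 (-0.44) and HDA1 (-0.35), and higher for ASF1 (0.52) and SIR2 (0.30). None of these passed with replicate 1 or with replicate 2 left out, where 0.466% and 0.27% of all genes passed.

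The MMS response of esa1-L254P minus that of wild type in G1 was lower for NGG1 (-0.9971), HAT1 (-0.77), ARP5 (-0.71), SPT3 (-0.68), SAS3 (-0.66), RSC8 (-0.59), RVB1 (-0.57), ISW2 (-0.56), SPT20 (-0.49), SIR4 (-0.42), SAS2 (-0.40) and HOS1 (-0.26). It was higher for HST2 (0.73), SIR2 (0.61), HOS2 (0.60), SPT8 (0.54), SNF6 (0.40) and HOS3 (0.34), with most of the G1 calls lost when 1 replicate or the other was left out. In S phase it was higher for NGG1 (0.73), ISW2 (0.68), RVB1 (0.60), ARP5 (0.56), SAS3 (0.52), HOS2 (0.49), HST4 (0.47), SIR4 (0.45), SPT20 (0.44), SPT7 (0.37) and SWR1 (0.36), and lower for HST2 (-0.76), SIR2 (-0.47) and HOS3 (-0.31), and none of the S phase differences passed with a replicate left out, where 0 of the 4073 genes passed.

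The difference of untreated esa1-L254P from wild type in S phase minus that in G1, chosen after the values were seen, was lower for NGG1 (-1.27), ARP5 (-1.19), SPT3 (-0.9994), ISW2 (-0.95), SAS3 (-0.79), SIR4 (-0.75), RVB1 (-0.70), HAT1 (-0.70), SPT20 (-0.68), RSC8 (-0.60), SPT7 (-0.42) and SWR1 (-0.39). It was higher for HST2 (1.14), SPT8 (0.85), SIR2 (0.84), HOS3 (0.43) and HAT2 (0.34). Most calls of this contrast were lost when 1 replicate or the other was left out.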

How the results depend on the processing

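Of the 81 calls of members in the 8 comparisons, 43 passed under every alternative other than leaving out a replicate. Once that was included, most of the 81 calls were lost under at least 1 alternative. No value called in the main fit or in the alternative reversed its direction. Uncalled values did change sign: of all 672 member values, 65 did so with the first spot only and 28 with arrays scaled. With replicate 1 or replicate 2 left out 90 and 104 did. Percentages in the brackets that follow are shares of all genes called. With the replicate block the count of members called moved to 13 (MMS in esa1-L254P G1, 51.3%), 20 (MMS in esa1-L254P S, 55.6%), 13 (strain, MMS G1, 29.3%), 1 (strain, MMS S, 2.38%), 19 (strain, untreated G1, 43.7%), 21 (strain, untreated S, 39.8%), 15 (strain mean, 20.3%), 26 (MMS, S minus G1, 34.9%), 26 (MMS, esa1-L254P minus wild type in S, 44.6%) and 26 (untreated strain difference, S minus G1, 54.1%). The share of all genes called rose with the block in each of these. By its construction the block removes the dye effect from the spread. It moved no other count by over 1.5 times. Scaling the arrays gave 7 (MMS in esa1-L254P S, 20.6%), 1 (strain, MMS S, 3.41%), 8 (MMS in wild-type G1, 21.6%, with 5 higher and 3 lower, against 14 and 4) and 7 (strain mean, 8.74%, with 3 and 4, against 1 and 3). It gave 5 higher and 3 lower for the untreated G1 strain difference (18.9%), against 8 and 2, and 2 and 3 with MMS (12.7%), against 1 and 3, where centring gave 0 and 3 (9.8%). The second spot alone gave 1 (strain, MMS G1, 4.74%), 2 (strain mean, 3.09%) and 11 (untreated strain difference, S minus G1, 26.1%). The arrays of the same phase alone gave 4 (MMS in esa1-L254P G1, 19.6%), 0 (strain, MMS G1, 1.35%), 5 (strain, untreated G1, 13.6%) and 11 (MMS in wild-type G1, 29.9%). Apart from the block and the smaller number of arrays, the cause was not tested.

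With 1 replicate left out, counts were 5 to 7 (MMS in wild-type G1), 4 to 5 (MMS in esa1-L254P G1), 8 to 13 (MMS in wild-type S), 6 to 6 (MMS in esa1-L254P S), 3 to 5 (strain, untreated G1), 0 to 0 (strain, MMS G1), 3 to 6 (strain, untreated S), 0 to 0 (strain, MMS S), 9 to 10 (MMS mean), 0 to 0 (strain mean), 0 to 0 (MMS, S minus G1), 6 to 8 (MMS, esa1-L254P minus wild type in G1), 0 to 0 (the same in S) and 7 to 7 (untreated strain difference, S minus G1). The share of all genes called was also lower than in the main fit for each of these results, so the lower counts are not particular to the members. The lone array left was assumed to vary like the others. Spot intensities were not used here, so signal over background is unknown.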

Other observations

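Further chromatin genes outside the listed complexes moved in the same comparisons. Of 16 histone chaperone genes beside ASF1, 3 were higher and 3 lower in untreated esa1-L254P G1 cells (13.7% higher and 8.27% lower over all genes), 2 were higher and 3 lower in untreated esa1-L254P S cells (9.4% higher and 12.2% lower over all genes), and 4 rose and 4 fell with MMS in wild-type G1 (19.5% higher and 16.9% lower over all genes). RLF2, a subunit of the CAF-1 assembly factor, was higher in untreated esa1-L254P G1 cells (0.71) and lower in untreated esa1-L254P S cells (-0.29), and it rose with MMS in wild-type G1 (0.63). RTT106, which carries newly made H3 and H4, had 0.62, -0.42 and 0.53 in the same comparisons. CAC2, another CAF-1 subunit, went the other way between the strains, with -0.43 in G1 and 0.56 in S, and rose with MMS in wild-type S (0.83). VPS75, a chaperone that binds Rtt109, fell with MMS in wild-type G1 (-0.56) and was higher in untreated esa1-L254P S cells (0.63).

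Of 12 histone methyltransferase genes 2 rose and 6 fell in wild-type S with MMS (18.2% higher and 20.7% lower over all genes). SET2, which methylates H3 behind the polymerase, fell in esa1-L254P G1 (-0.47), in esa1-L254P S (-0.59) and in wild-type S (-0.83). SDC1 and SHG1, subunits of the COMPASS complex that methylates H3 at promoters, were higher in untreated esa1-L254P G1 cells (0.84 and 0.83) and lower in untreated esa1-L254P S cells (-0.54 and -0.75). Of 11 measured histone genes, 1 rose and 0 fell with MMS in wild-type G1 (median 0.66, against 36.4% of all genes called). In untreated esa1-L254P 1 was higher and 1 lower in G1 (median 0.50, against 21.9% of all genes called) and in S (median 0.11, against 21.6%). CSE4, the centromeric H3 variant, rose with MMS in wild-type G1 (1.04) and was higher in untreated esa1-L254P G1 cells (0.84) and lower in untreated S (-0.32). HHO1, the linker histone H1, was lower in untreated esa1-L254P G1 cells (-0.51, adjusted p = 0.0163) and higher in untreated S (0.46). The messenger RNA was selected on oligo-dT, and the part of that selection in the histone values was not tested. Of 21 pheromone response genes 0 rose and 2 fell in esa1-L254P G1 with MMS (13.6% higher and 14.6% lower over all genes), and 1 rose and 1 fell in wild-type G1 (against 36.4% of all genes called). Of 11 measured core NuA4 genes 4 rose and 0 fell in wild-type G1 with MMS (against 36.4% of all genes called), and 1 rose and 6 fell in wild-type S (against 38.9%).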
